A study of Mus musculus with 4 samples.

Results

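Strong proximal promoters were taken from a list of regions where H3K27ac, the acetyl mark on lysine 27 of histone H3 that goes with active promoters and enhancers, differed between mouse embryonic stem cells (mESCs) grown without folate and with folate. Members were chosen by 4 properties of a listed peak. It lay within 1 kb of a transcription start site by the authors' annotation, its gene was protein-coding, it was on neither chromosome 1 nor chromosome 8, and at least 40 fragments of the FA4 library were stacked at its summit (the pileup). Of 4088 listed peaks, 854 were proximal to a protein-coding start, 748 of these were off chromosomes 1 and 8, and 445 were members, in 409 genes. The remaining 303, called weaker proximal promoter peaks here, had pileups from 8 to 39.

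The cells were of the Sv129 line, cultured with 0 mg/L folate (FA0, folate-deficient) or 4 mg/L folate (FA4, control). Chromatin was digested enzymatically and precipitated with an anti-H3K27ac antibody, and 4 libraries were sequenced, 1 immunoprecipitated (IP) and 1 input per condition. With 1 library per condition there was no replicate check and no test was possible. Intervals given here are 95% intervals. Those of ratios and counts cover counting error only. Those of medians and shares treat peaks or genes as independent draws. None covers variation between libraries. Among the 49 markers of neural, trophoblast, mesoderm, endoderm and feeder cells, none had a member. A listed peak of another kind was found at 3 of them (Gata3, Krt18 and Tfap2c). Over all protein-coding genes off chromosomes 1 and 8 only 2.08% had a member, so the absence at the 49 markers carries no reading. Of 30 pluripotency genes 8 had a member, including the defining factors Pou5f1, Sox2 and Nanog, and the rest had none.

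Each listed peak is a place where the peak caller found more H3K27ac in the FA4 IP library than in the FA0 IP library, which served as control. The list can therefore hold no region higher in FA0. The table does not state which library was the control. The order was inferred from the study's naming of the same promoter peaks and from how pileups and backgrounds are written. The study's text goes the other way, describing slightly more H3K27ac in folate-deficient cells than in controls. If the order were reversed, every direction given here would be too. Fold is the authors' value, FA4 over FA0, computed as the FA4 pileup plus 1 over the local FA0 background plus 1, so a higher fold means a lower FA0 level relative to FA4.

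A promoter is the stretch around the start site where RNA polymerase II and the general transcription factors assemble. In active mammalian promoters a nucleosome-free gap lies at the start site, and the nucleosomes on either side, above all the first in the transcribed direction, carry H3K27ac, which acetyltransferases such as p300 and CBP deposit and bromodomain proteins read. The strongest such marks in dividing stem cells are typically at CpG-rich promoters of housekeeping genes for making and processing RNA and protein.

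The promoter sequences below belong to the member of highest pileup in each of 8 gene groups and to 3 of the members of highest fold, among members with a RefSeq promoter within 500 bp of the annotated start. For chaperones, Dnajc7 stands in for the taller Hspa9 and Hspa8. Each runs from 250 bases before to 50 after the RefSeq start site. Capitals mark matches to the short motifs searched, which are spelled out further on.
Rpl23, a protein of the large ribosomal subunit, had the tallest peak of any ribosomal protein gene. Rpl23 (GRCm38.p6, chr11:97782390-97782689, reverse strand): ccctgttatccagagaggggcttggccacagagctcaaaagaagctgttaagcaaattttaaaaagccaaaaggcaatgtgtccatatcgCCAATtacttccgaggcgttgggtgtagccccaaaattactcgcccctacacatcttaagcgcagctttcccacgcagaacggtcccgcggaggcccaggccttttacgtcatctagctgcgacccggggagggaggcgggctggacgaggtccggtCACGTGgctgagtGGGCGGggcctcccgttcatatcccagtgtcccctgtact
Eif2s2 encodes the beta subunit of translation initiation factor 2. Eif2s2 (GRCm38.p6, chr2:154892857-154893156, reverse strand): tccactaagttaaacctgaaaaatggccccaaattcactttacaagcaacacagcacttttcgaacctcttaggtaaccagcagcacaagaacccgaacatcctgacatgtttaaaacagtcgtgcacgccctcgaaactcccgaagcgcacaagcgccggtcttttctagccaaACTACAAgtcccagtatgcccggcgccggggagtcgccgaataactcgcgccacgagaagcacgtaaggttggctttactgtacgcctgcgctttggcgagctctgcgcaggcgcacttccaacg
Tardbp, which encodes the RNA-binding protein TDP-43, had the highest fold of all members. Tardbp (GRCm38.p6, chr4:148626947-148627246, reverse strand): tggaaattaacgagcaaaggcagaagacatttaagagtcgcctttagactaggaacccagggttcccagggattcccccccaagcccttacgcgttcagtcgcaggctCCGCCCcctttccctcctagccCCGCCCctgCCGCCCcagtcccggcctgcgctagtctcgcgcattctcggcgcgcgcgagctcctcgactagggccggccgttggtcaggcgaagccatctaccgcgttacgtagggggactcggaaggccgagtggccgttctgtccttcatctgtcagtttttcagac
H3c13 is a replication-dependent histone H3 gene. H3c13 (GRCm38.p6, chr3:96268404-96268703, forward strand): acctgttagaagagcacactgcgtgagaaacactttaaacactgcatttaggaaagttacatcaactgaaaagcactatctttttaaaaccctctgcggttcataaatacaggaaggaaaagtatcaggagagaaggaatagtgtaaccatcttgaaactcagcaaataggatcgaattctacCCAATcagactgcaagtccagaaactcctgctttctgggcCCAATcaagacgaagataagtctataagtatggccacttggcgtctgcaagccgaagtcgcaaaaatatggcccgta
Brd2 encodes a bromodomain reader of acetylated histones. Brd2 (GRCm38.p6, chr17:34121698-34121997, reverse strand): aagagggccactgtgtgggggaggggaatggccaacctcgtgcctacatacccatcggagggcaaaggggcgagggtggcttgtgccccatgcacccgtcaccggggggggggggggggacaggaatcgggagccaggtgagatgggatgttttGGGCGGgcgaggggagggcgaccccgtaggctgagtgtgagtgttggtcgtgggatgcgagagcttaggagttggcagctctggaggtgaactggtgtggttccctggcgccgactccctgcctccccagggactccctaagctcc
Dnajc7 encodes a co-chaperone of the heat shock proteins. Dnajc7 (GRCm38.p6, chr11:100619578-100619877, reverse strand): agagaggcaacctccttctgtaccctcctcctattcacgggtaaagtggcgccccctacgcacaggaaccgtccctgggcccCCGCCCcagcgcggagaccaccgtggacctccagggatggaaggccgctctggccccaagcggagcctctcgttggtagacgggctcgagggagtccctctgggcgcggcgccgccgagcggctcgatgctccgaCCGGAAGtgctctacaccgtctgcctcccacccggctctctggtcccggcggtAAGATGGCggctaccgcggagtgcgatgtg
Sox2 encodes a transcription factor of the pluripotency network. Sox2 (GRCm38.p6, chr3:34649745-34650044, forward strand): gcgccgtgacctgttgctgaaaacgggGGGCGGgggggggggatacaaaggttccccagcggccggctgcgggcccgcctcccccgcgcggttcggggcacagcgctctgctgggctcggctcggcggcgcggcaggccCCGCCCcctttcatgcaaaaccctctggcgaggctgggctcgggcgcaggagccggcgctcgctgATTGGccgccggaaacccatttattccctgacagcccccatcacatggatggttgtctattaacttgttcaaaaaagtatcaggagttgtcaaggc
Ptch1 encodes the receptor of hedgehog ligands. Ptch1 (GRCm38.p6, chr13:63565686-63565985, reverse strand): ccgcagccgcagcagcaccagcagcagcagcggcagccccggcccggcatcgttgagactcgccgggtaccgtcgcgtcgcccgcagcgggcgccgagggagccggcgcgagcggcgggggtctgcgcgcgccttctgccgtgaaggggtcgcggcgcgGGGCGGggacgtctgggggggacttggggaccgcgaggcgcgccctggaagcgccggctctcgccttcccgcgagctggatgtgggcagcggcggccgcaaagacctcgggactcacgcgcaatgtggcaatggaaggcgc
Huwe1, an X-linked ubiquitin ligase gene, had the second highest fold. Huwe1 (GRCm38.p6, chrX:151803032-151803331, forward strand): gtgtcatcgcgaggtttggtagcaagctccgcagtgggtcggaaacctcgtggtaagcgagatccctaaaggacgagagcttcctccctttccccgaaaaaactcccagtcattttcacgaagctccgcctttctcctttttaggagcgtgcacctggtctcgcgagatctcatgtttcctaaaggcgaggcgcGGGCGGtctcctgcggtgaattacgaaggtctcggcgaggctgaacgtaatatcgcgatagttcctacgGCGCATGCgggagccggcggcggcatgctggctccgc
Rps18, a protein of the small ribosomal subunit, had the third highest fold. Rps18 (GRCm38.p6, chr17:33955616-33955915, reverse strand): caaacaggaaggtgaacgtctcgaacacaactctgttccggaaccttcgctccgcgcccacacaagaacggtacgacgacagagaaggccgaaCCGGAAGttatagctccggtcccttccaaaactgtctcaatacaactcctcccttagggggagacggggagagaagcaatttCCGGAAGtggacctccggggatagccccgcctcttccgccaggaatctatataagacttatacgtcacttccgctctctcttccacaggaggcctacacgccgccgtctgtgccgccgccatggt
The 10 promoters differed in composition. Ptch1 was the richest in G and C, at 76.3%, and H3c13 the poorest, at 42.0%. For Sox2, Ptch1 and Rps18 the RefSeq start lay 410, 461 and 453 bp upstream of the start site used in the peak annotation, so these windows are not centred on the annotated start.

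The members' levels were read first as the FA4 pileup. It had a median of 62 fragments (60 to 65), with an interquartile range of 51 to 79 and a maximum of 182, and 37 members reached 100 or more. These values chose the members and are a description only. Just inside the threshold, at 40 fragments, were Adrm1, G3bp1, Haus6, Ruvbl2, Tigar, Timm22, Zfp607b and Zfp62, with folds from 2.25 to 3.42. Just outside it, at 39 fragments, were Actn4, Fkbp2, Flad1, Kcmf1, Nop2 and R3hdm2, with folds from 1.90 to 3.04. The folds on the 2 sides of the threshold thus overlapped.

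The local FA0 background is not a column of the table, but follows from pileup and fold. At the members it took discrete values. At 372 of 445 members (83.6%) it was a whole multiple of 0.2387, within 0.0001 plus the rounding of the fold, and the smallest peak width, 252 bp, is the window this step belongs to. At 67 members the background was a multiple of the step that a 1-kb window gives, and at 6 that of a 10-kb window. So 0.2387 is what 1 FA0 fragment was worth after scaling to the FA4 library, which would put the FA0 total at 4.19 times the FA4 total. The number of FA0 fragments within 252 bp of sequence around the FA4 summit could thereby be recovered for the 372 members.

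At these 372 members, FA0 had a median of 106.5 fragments (101 to 111) before scaling, against an FA4 pileup with a median of 64 (61 to 66). FA0 ranged from 43 to 331 fragments. Unscaled, FA0 exceeded FA4 at 362 members, equalled it at 1 and was below it at 9. Summed over the 372 members there were 42378 FA0 fragments and 25573 FA4 fragments, a ratio of 1.66 for FA0 over FA4. After scaling, FA4 was 2.53 times FA0 in the sums, and the interval of every member's own ratio lay above 1, as the calling of the peaks required. The direction in which the 2 libraries differ at these promoters therefore rests on the scaling to library totals, which were not analysed here. The share of each library's fragments that fell outside peaks was not analysed here either, and its part in the difference was not tested.

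**Figure D1:**
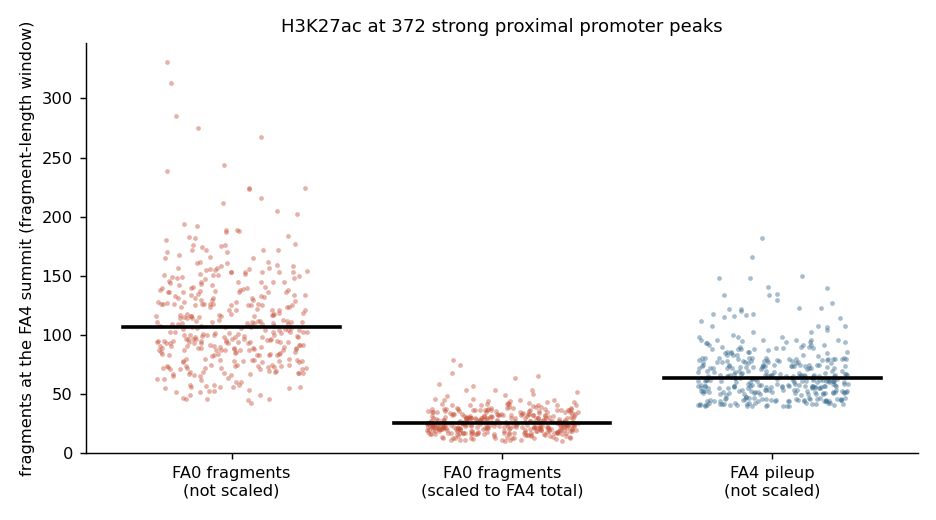
Levels at the 372 members whose FA0 background came from the 252 bp window, in fragments at the FA4 summit: FA0 not scaled, FA0 scaled to the FA4 total, and FA4. Each point is 1 member and black bars are medians, 106.5 for unscaled FA0 and 64 for FA4; the median of scaled FA0 lies below the lowest FA4 pileup of 40.

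Across all 445 members the scaled FA0 background had a median of 24.3 fragments (23.2 to 25.6) and ran from 10.3 to 79.0. The fold had a median of 2.52 (2.45 to 2.60) and ran from 1.53 to 6.11. Folds of at least 3 were found at 108 members (24.3%, 20.4 to 28.5%). Over the whole list the share at or above that fold was 77.8%. The weaker proximal promoter peaks had a median fold of 3.65 and a median background of 4.09. Since a peak of few fragments needs a larger fold to be called, and members were selected on the FA4 pileup that is also in the fold, these gaps carry no reading.

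Among the 10 members of highest pileup were 4 genes of the translation machinery (Rpl23, Eif2s2, Eif4a2 and Rps18) and 2 of RNA-binding proteins (Tardbp and Hnrnpa2b1). Gm21411, a predicted gene in a repeated stretch of chromosome 4 where fragments may belong to several copies, had 275 FA0 fragments (65.6 after scaling) and an FA4 pileup of 182. Rpl23 had 189 FA0 fragments (45.1 after scaling) and an FA4 pileup of 166. Hspa9, which encodes the mitochondrial chaperone mortalin, had 126 FA0 fragments (30.1 after scaling) and an FA4 pileup of 150 at its taller peak. These were the tallest, and their folds spread from 2.75 to 4.86. Eif2s2 had 151 FA0 fragments (36.0 after scaling) against an FA4 pileup of 148. Hnrnpa2b1, which packages new transcripts, had a scaled FA0 background of 52.5, read from 872 fragments in 1 kb, against an FA4 pileup of 147. Of the others among the 10 tallest, Eif4a2, an RNA helicase of translation initiation, had a fold of 2.45, Dido1 a fold of 2.50 and Gapdh, the glycolytic dehydrogenase, a fold of 1.86.

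The 10 members of highest fold were Tardbp, Huwe1, Rps18, Ddx54, Hspa9, Rpl7a, Oaz1, Atpsckmt, Psenen and Rplp0, with folds from 6.11 to 4.24. At Tardbp, 98 FA0 fragments (23.4 after scaling) stood against an FA4 pileup of 148, a ratio of FA4 over scaled FA0 of 6.33 (4.87 to 8.25). It was among the few members with fewer FA0 than FA4 fragments even before scaling. Ddx54, a DEAD-box RNA helicase, had 63 FA0 fragments (15.0 after scaling) against an FA4 pileup of 77, a ratio of 5.12 (3.62 to 7.26). Oaz1, the antizyme that lowers polyamine synthesis, had 49 FA0 fragments (11.7 after scaling) against 57 in FA4, a ratio of 4.87 (3.27 to 7.29). Psenen, a subunit of gamma-secretase, had 111 FA0 fragments (26.5 after scaling) against 118 in FA4, a ratio of 4.45 (3.41 to 5.82). The intervals of Tardbp, Ddx54, Oaz1 and Psenen overlapped, and their order was not tested.

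At the other end, the 5 lowest folds were 1.53 at Eif4a1, 1.55 at Txnip, 1.59 at Pafah1b1, 1.64 at Eef2 and 1.64 at Mybl2. Txnip, an inhibitor of thioredoxin and of glucose uptake, had the most FA0 fragments of any member, 331 (79.0 after scaling), against an FA4 pileup of 123. Its ratio was 1.56 (1.26 to 1.92). Eef2, the elongation factor that moves the ribosome along, had 285 FA0 fragments (68.0 after scaling) against an FA4 pileup of 112, a ratio of 1.65 (1.31 to 2.06). Eif4a1, the close relative of Eif4a2, had 267 FA0 fragments (63.7 after scaling) against 98 in FA4, a ratio of 1.54 (1.21 to 1.95).

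Each member's interval was also set beside the ratio of the sums, 2.53, as a description. The intervals of 36 members lay wholly above it, those of 30 wholly below and those of 306 spanned it. Since the FA4 pileup in the ratio also chose the members, no share given by counting error alone applies to these numbers. Splicing factors and hnRNPs lay on both sides. Above were Tardbp, Ewsr1, Srsf1 (129 FA0 fragments, 30.8 after scaling, and 104 in FA4), Srsf5 (93, 22.2 after scaling, and 92), Snrpa (136, 32.5 after scaling, and 117) and Prpf8 (103, 24.6 after scaling, and 86). Below were Snrnp35 (184, 43.9 after scaling, and 79) and Rbm39 (148, 35.3 after scaling, and 65). Ribosomal protein genes were also split, with Rpl23, Rpl27, Rps4x and the lower peak of Rps18 above and Rpl12 and Rps25 among those below. Others below were Gapdh, Eef2, Eif4a1, Txnip, the pluripotency genes L1td1 and Mybl2, and Uhrf1.

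**Figure D2:**
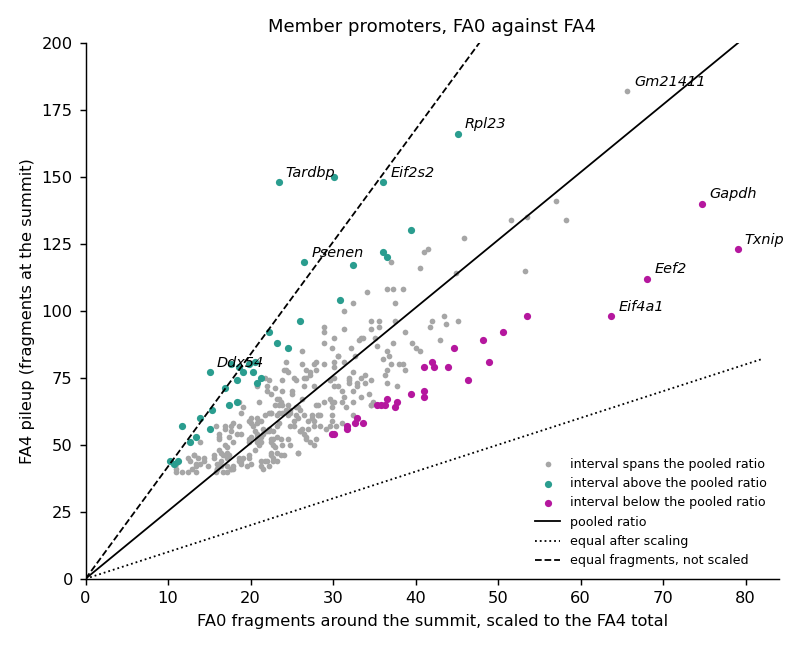
FA0 fragments scaled to the FA4 total (x) against FA4 pileup (y) for the 372 members with the 252 bp window. Coloured points have a 95% counting interval wholly above (36 members) or below (30 members) the pooled ratio of 2.53 drawn as a solid line; nearly all points lie under the dashed line where unscaled fragments would be equal, and all lie above the dotted line of equal scaled levels.

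Gene groups were described by how many of their genes had a member. Over all 19653 protein-coding genes of the annotation off chromosomes 1 and 8, 408 had one (2.08%). Of the 31 groups examined, the genes for cytosolic ribosomal proteins held the largest share: 41 of 80 had a member (51.25%, 39.8 to 62.6%). Their 44 peaks had a median fold of 2.71, near the 2.52 of all members, and ranged from 1.77 at Rps25 to 4.87 at Rps18. Both subunits were represented, for instance by Rpl23, Rps18, Rpl7a and Rpl8. Only 4 of 71 mitochondrial ribosomal protein genes (5.63%, 1.56 to 13.8%) had a member, among them Mrps18b, with a fold of 2.66, and Mrpl11, with a fold of 3.00.

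The other steps of protein synthesis were covered unevenly. Of 50 genes for translation initiation and elongation factors, 15 had a member (30%, 17.9 to 44.6%), with Eif2s2, Eif4a2, Eef1a1 and Eef2 the tallest. Their folds ranged from 1.53, the lowest of all members, to 4.02. Aminoacyl-tRNA synthetases, which load amino acids on transfer RNA, had members at 4 of 28 genes (Yars, Nars, Cars and Sars2). Ribosome biogenesis factors had members at 4 of 60 genes (Nop56, Utp3, Npm1 and Tsr1), with folds from 1.77 to 2.96.

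Genes of RNA processing were covered as well. Splicing factors and hnRNPs, which cut introns from and package new transcripts, had members at 24 of 106 genes (22.6%, 15.1 to 31.8%), and their 26 peaks had a median fold of 2.79. Tardbp, Hnrnpa2b1, Ewsr1 and Snrpa were the tallest, and 9 of the 26 peaks had a fold of at least 3. Genes of mRNA export, 3′ end processing and decay had members at 7 of 50 genes, led by Cnot8, Cstf1, Cpsf4l and Cnot3. RNA polymerase subunits and general transcription factors had members at 8 of 96 genes, and all 9 of their peaks had folds of 2.45 or more. These included Polr2a, the largest subunit of RNA polymerase II, with a scaled FA0 background of 21.5 against an FA4 pileup of 54, and Polr1a, the largest subunit of RNA polymerase I, with 20.8 against 72.

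Pluripotency genes had members at 8 of 30 genes (26.7%, 12.3 to 45.9%). Their median fold, 2.09, was lower than that of all members, and none was at least 3. Nuclear transport (1.98), DNA methylation (2.04), glycolysis (2.12) and histones (2.15) had like medians, also with no fold of at least 3. Pou5f1, the core factor OCT4, had 189 FA0 fragments (45.1 after scaling) and an FA4 pileup of 96, a ratio of 2.13 (1.65 to 2.73). Nanog had 170 FA0 fragments (40.6 after scaling) and 85 in FA4, a ratio of 2.09 (1.59 to 2.73). Sox2 had a scaled FA0 background of 47.4, from 788 fragments in 1 kb, and an FA4 pileup of 104. At Pou5f1, Nanog and Sox2 the scaled FA0 background was thus above 24.3, the median of all members. At Dppa5a, the lowest of the list, it was 22.7. The 3 peaks of glycolysis genes had a median of 40.1. Over all 8 peaks of pluripotency genes the median scaled FA0 background was 40.8, against 26.9 at the 44 peaks of ribosomal protein genes. The FA4 pileups of the same peaks were alike (medians of 74.5 and 76). At those peaks of each group where the 252 bp window applied, the medians were 172 and 121 FA0 fragments. L1td1, an RNA-binding protein of stem cells, had 205 FA0 fragments (48.9 after scaling) against 81 in FA4.

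Histone genes behaved alike. Of 74 core and linker histone genes 7 had a member (9.46%, 3.89 to 18.5%), and all 7 folds lay between 1.98 and 2.39. H3c13 had 183 FA0 fragments (43.7 after scaling) and an FA4 pileup of 95. H2bc7 had 144 FA0 fragments (34.4 after scaling) and 69 in FA4, and H2az1, the replication-independent variant H2A.Z, had 124 (29.6 after scaling) and 67. Histone genes are near-identical copies in clusters, so fragments may be split among them.

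Chromatin modifiers and remodelers had members at 17 of 146 genes (11.6%, 6.93 to 18%), with 24 peaks and a median fold of 2.44, none of them at least 3. Brd2, Setd1a, Arid5b and Jarid2 were the tallest. The group held both writers of active marks (Setd1a and Kat7) and subunits of Polycomb complexes (Suz12, Jarid2, Mtf2, Pcgf2, Cbx7). Of 20 genes of DNA methylation and demethylation 2 had a member. Uhrf1, which brings the maintenance methyltransferase to replicated DNA, had 176 FA0 fragments (42.0 after scaling) and 81 in FA4, a ratio of 1.93 (1.46 to 2.52). Trim28, a corepressor of retroelements, had 2 members, with folds of 2.79 and 2.04.

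Of 31 hedgehog pathway genes, 3 had members, and each had 2 of them. Ptch1, receptor and target of the pathway, had 136 FA0 fragments (32.5 after scaling) against 103 in FA4 at the peak 155 bp downstream of its nearest start site, a ratio of 3.17 (2.43 to 4.13). At its other peak, 213 bp upstream of a second start site, 224 FA0 fragments (53.5 after scaling) stood against 98 in FA4, a ratio of 1.83 (1.43 to 2.33). The 2 intervals did not overlap, and the summits were 1091 bp apart, but a difference between the peaks was not tested. Gli1, an effector of the pathway that is also switched on by it, had 102 FA0 fragments (24.3 after scaling) against 78 in FA4 at its downstream peak, and 134 (32.0 after scaling) against 74 at its upstream peak. Their ratios, 3.20 (2.35 to 4.34) and 2.31 (1.72 to 3.10), overlapped. Csnk1a1, the casein kinase that phosphorylates GLI proteins, had folds of 2.57 and 1.95.

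Metabolic genes differed in how many had members. Of 35 genes of folate and one-carbon metabolism only Mthfd2 had one (2.86%, 0.0723 to 14.9%), close to the 2.08% of all genes. Mthfd2, a mitochondrial enzyme of the folate cycle, had 58 FA0 fragments (13.8 after scaling) against 51 in FA4, a ratio of 3.68 (2.48 to 5.46). It is also a target of ATF4, the factor of the amino acid stress response, of whose 28 listed targets 6 had a member (21.4%, 8.30 to 41.0%): Slc3a2, Psph, Trib3, Mthfd2, Asns and Cth, with folds from 2.02 to 3.50. Oxidative phosphorylation had members at 9 of 80 genes (11.25%, 5.28 to 20.3%), led by Atp5b, Ndufa7, Cox7c and Atp5g2. Glycolysis had members at 3 of 22 (13.6%, 2.91 to 34.9%), namely Gapdh, Eno1 and Pkm, and solute carriers at 4 of 338 (1.18%, 0.323 to 3.00%), namely Slc3a2, Slc25a39, Slc25a40 and Slc25a5.

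Growth and protein fate made up further groups. DNA replication had members at 8 of 49 genes, with Top2a, Mcm2, Pcna and Rrm2 the tallest and folds from 2.09 to 3.51. Cell cycle and mitosis had members at 8 of 92 genes, led by Cdca5, Smc3, Ccnb1 and Cks2. Chaperones had members at 8 of 97 genes, among them Hspa9, Hspa8, Dnajc7 and Cct4, ubiquitin and SUMO conjugation at 6 of 49, among them Sumo2, Ube2s and Sumo3, and the proteasome at 3 of 47 (Psmd12, Psma6 and Psmb6). Psmb6 had 43 FA0 fragments, the fewest recovered, and 44 in FA4. Nuclear transport (Kpnb1, Nup88 and Ranbp1) had folds from 1.80 to 2.00, and cytoskeleton (Actb, Cfl1 and Actn4) from 2.24 to 3.77. The secretory pathway had members at 2 of 107 genes, Ssr2 and Rab5c. Zinc finger genes named Zfp had members at 12 of 368 genes (3.26%, 1.70 to 5.63%), with Zfp143, Zfp207, Zfp936 and Zfp532 the tallest. In all, 217 of the 408 matched genes were in at least 1 list and 191 were in none.

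**Figure D3:**
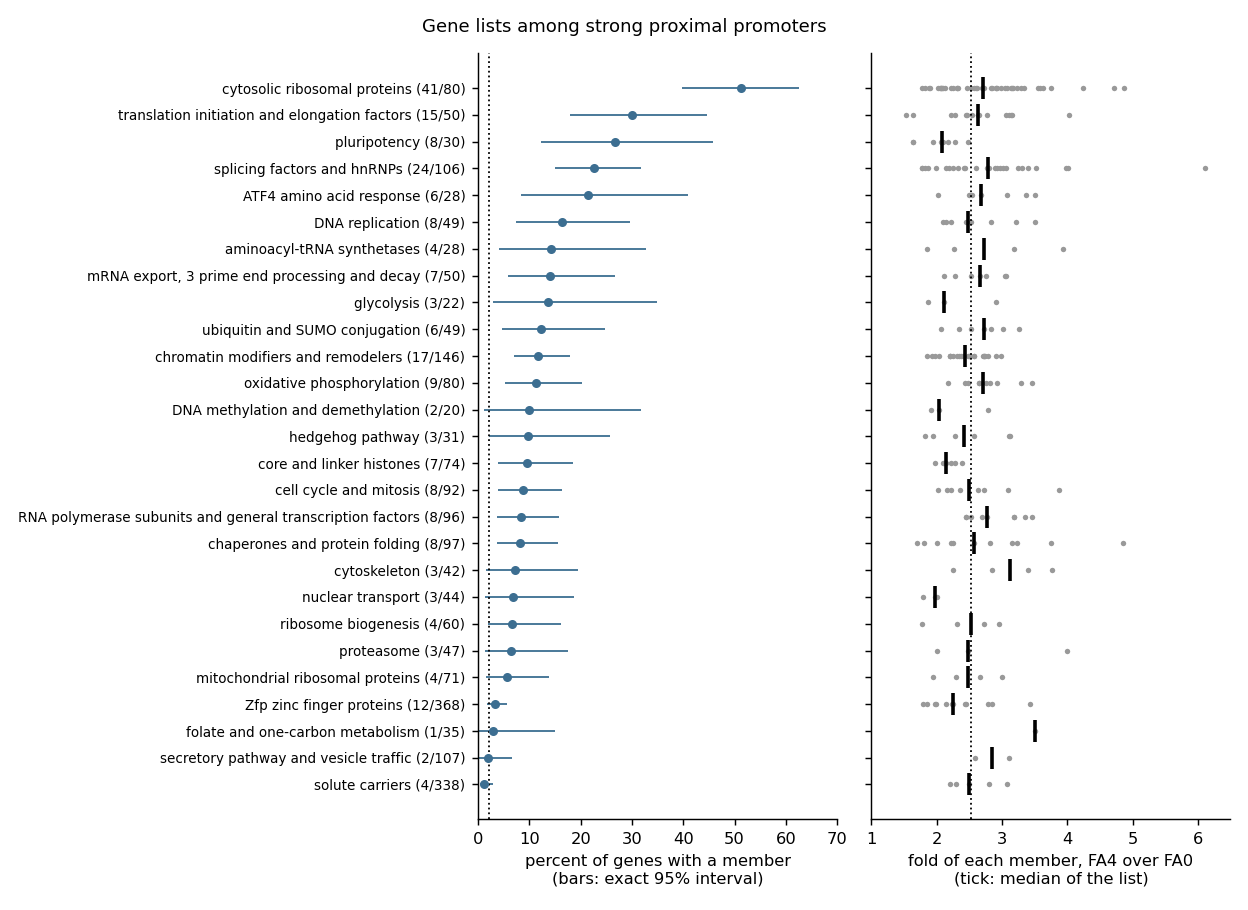
Left, the percent of genes of each list that had a member, with the exact 95% interval and counts in parentheses; the dotted line is the 2.08% of all protein-coding genes. Right, the fold (FA4 over FA0) of every member of the list, with a tick at the list's median and a dotted line at 2.52, the median of all members; cytosolic ribosomal proteins (51.25%) stand farthest right on the left panel.

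The summits were not spread evenly around the start site. They lay downstream of it at 304 of 445 members (68.3%, 63.8 to 72.6%). Between 50 and 250 bp downstream there were 169 summits (38.0%, 33.4 to 42.7%), and in the matching interval upstream 61 (13.7%, 10.7 to 17.3%). Within 50 bp of the start site on either side there were 20 (4.49%, 2.77 to 6.86%). The median distance was 195 bp (177 to 222) for downstream summits and 279 bp (227 to 323) for upstream ones. At the weaker proximal promoter peaks 185 of 303 summits lay downstream (61.1%, 55.3 to 66.6%), an interval that overlapped that of the members. Of these 303 summits 47 lay 50 to 250 bp downstream (15.5%, 11.6 to 20.1%), an interval that did not overlap that of the members. The median fold was 2.52 (2.45 to 2.62) for downstream and 2.48 (2.41 to 2.66) for upstream summits.

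**Figure D4:**
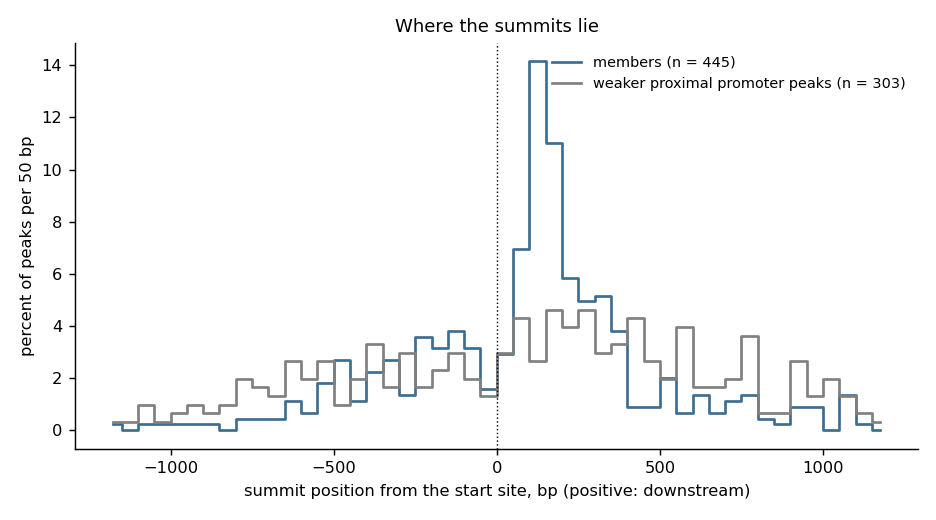
Position of summits relative to the annotated start site in bins of 50 bp, as a percent of the 445 members and of the 303 weaker proximal promoter peaks; positive positions are in the transcribed region. The members rise sharply between 50 and 250 bp downstream, where 38.0% of them lie.

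Most peaks were narrow, with a median width of 369 bp (347 to 383). The widest was at Rnf7, a RING subunit of ubiquitin ligases, with 2456 bp, yet its summit had only 55 FA0 fragments (13.1 after scaling) and 46 in FA4. Jarid2 (1495 bp), Sphk2 (1257 bp), Tardbp (1245 bp) and Eef1g (1142 bp) followed. Another listed peak lay within 5 kb of the summit at 113 members (25.4%, 21.4 to 29.7%).

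In 34 genes there was more than 1 member, with 2 in 32 genes and 3 in Brd2 and Tgif1. Peaks of 1 gene were annotated to different start sites in 26 of the 34, and their summits were a median of 1032.5 bp apart. At Brd2 the middle peak had 216 FA0 fragments (51.6 after scaling) and 134 in FA4, and the outer peaks 162 (38.7 after scaling) and 92, and 106 (25.3 after scaling) and 57, with folds of 2.57, 2.34 and 2.21. The folds of Brd2 were close to each other. At Tgif1, a homeobox repressor of TGF-beta and retinoid signalling, 118, 145 and 145 FA0 fragments stood against 65, 65 and 74 in FA4. Ratios within 1 gene could also lie farther apart. At Hspa9 the taller peak had a ratio of 4.99 (3.91 to 6.37). The other, with 153 FA0 fragments (36.5 after scaling) and 67 in FA4, had 1.83 (1.36 to 2.46). This pair was set side by side after its values were seen, and the FA4 pileup in both ratios also chose the members. A difference between the 2 peaks was not tested.

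Members were found on every chromosome examined except Y. Per 100 protein-coding genes there were 3.92 members on chromosome 11 (63 members, 3.01 to 5.01) and 0.588 on chromosome 14 (5 members, 0.191 to 1.37), with a median of 2.29 over 17 autosomes. The X chromosome had 12 members, 1.24 per 100 genes (0.642 to 2.2), among them Huwe1, Rps4x, Rbm3 and Uxt, and their median fold was 3.01. Leaving out chromosomes 1 and 8 removed 22 and 40 peaks that met the other conditions.

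Sequence was not used by the rule. A RefSeq promoter on the same strand with its start within 500 bp was found for 312 member peaks, which gave 303 distinct promoters. Their G and C content had a median of 61.7% (60.3 to 62.3%), against 57.3% (55.7 to 58.3%) at 132 promoters of weaker peaks and 56.7% over 18934 coding promoters. Those 132 were what the 303 weaker peaks gave when matched alike, with promoters shared with a member left out. The ratio of observed to expected CpG was 0.869 (0.844 to 0.907) at members, 0.760 (0.678 to 0.823) at weaker peaks and 0.568 over all promoters. With CpG-rich taken as at least 50% G and C and a CpG ratio of at least 0.6, 248 of 303 members (81.8%, 77.0 to 86.0%) were CpG-rich, against 61.4% (52.5 to 69.7%) of weaker peaks' promoters and 45.2% of all. The fold did not follow G and C content among members: its median was 2.61, 2.58 and 2.55 in the lowest, middle and highest bands of G and C with about equal numbers of members, and the intervals overlapped.

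Motifs were searched as exact letters, on both strands unless stated. The GC box GGGCGG, bound by Sp1, was in 69% (63.4 to 74.1%) of member promoters and 46.4% of all promoters. The ETS motif CCGGAAG was in 25.1% (20.3 to 30.4%) of members and 11.6% of all, YY1's AAGATGGC in 10.6% (7.34 to 14.6%) and 3.04%, and NRF1's GCATGCGC in 7.59% (4.87 to 11.2%) and 3.56%. These 4 were each more frequent at members than over all promoters by more than the interval. At promoters of the weaker peaks the GC box was in 58.3% (49.4 to 66.8%) and the ETS motif in 25.8% (18.5 to 34.1%). YY1's letters were in 6.06% (2.65 to 11.6%) of them and NRF1's in 6.06% (2.65 to 11.6%). Each interval overlapped that of the members. Overlap does not show that the shares are equal, and differences between members and weaker peaks were not tested. The CCAAT box, letters CCAAT, was in 38.0% (32.5 to 43.7%) of members, 51.5% (42.7 to 60.3%) of weaker peaks' promoters and 38.1% of all promoters. The E-box CACGTG (10.6% and 7.85%), the cyclic AMP response element TGACGTCA (3.96% and 2.19%) and ZNF143's ACTACAA (4.95% and 3.6%) had intervals at members that held the value of all promoters. The TATA box TATAAA, between 40 and 15 bases before the start on the coding strand, was in 4 of 303 members (1.32%, 0.361 to 3.35%) and 2.51% of all. Several of these motifs, among them the GC box, ETS and NRF1, hold CG in their letters, and shares at matched base composition were not compared. The letters of no motif contain those of another.

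The TCT initiator, an element of genes of the translation machinery, was searched as TCTTTC on the coding strand within 20 bases of the start, with TCTTTT counted as well, and so too CCTTTC and also the word CCTTTT. It was in 12 of 29 member promoters of cytosolic ribosomal proteins (41.4%, 23.5 to 61.1%), in 18 of 274 other member promoters (6.57%, 3.94 to 10.2%) and in 4.92% of all. In the printed sequences, Tardbp had 3 GC boxes, Rps18 had 2 ETS motifs, at -157 and -75 from the start, and Eif2s2 had the ZNF143 letters at -75. Dnajc7 had an ETS motif 33 bases before the start and the YY1 letters beginning 20 bases after it. A match says only that these letters are there.

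**Figure D5:**
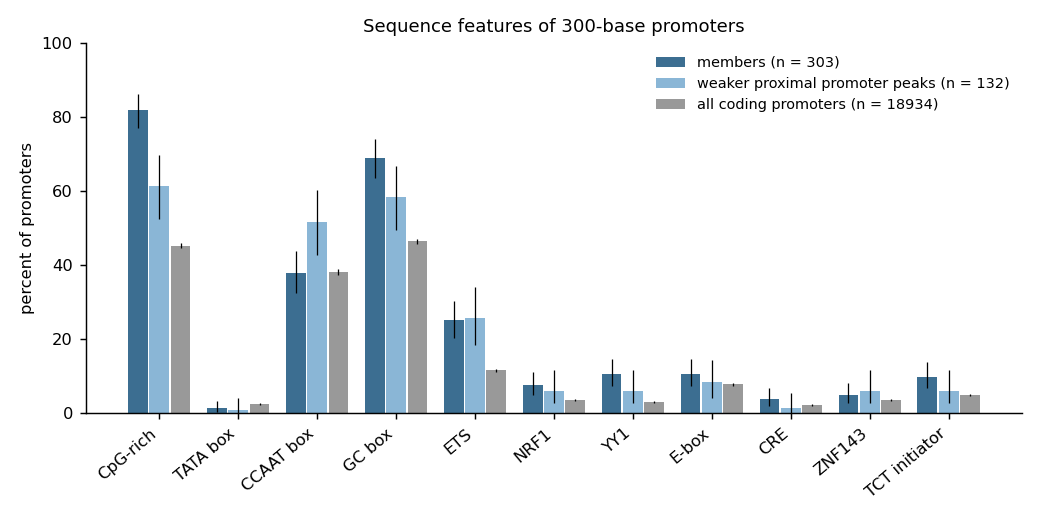
Percent of 300-base promoters that were CpG-rich or held each motif, for 303 members, 132 promoters of weaker proximal promoter peaks and all 18934 coding promoters; bars start at 0 and lines are exact 95% intervals. Members were CpG-rich in 81.8% and held the GC box in 69%.

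Many member promoters faced another gene. A start site of a different coding gene on the opposite strand lay within 1 kb upstream at 55 of 303 member promoters (18.2%, 14 to 23%), at 13 of 132 promoters of weaker peaks (9.85%, 5.35 to 16.3%) and at 7.88% of all promoters. Rps18, for instance, faced Vps52, a subunit of a vesicle tethering complex. A peak between 2 such genes was annotated to 1 of them only. Members with a facing start had a median fold of 2.64 (2.50 to 2.75) and those without 2.54 (2.45 to 2.65).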

How the data were processed

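H3K27ac ChIP-seq was done on FA0 and FA4 mESCs, with 1 IP and 1 input library each. Per the submitters' processing notes, reads were handled with bcl2fastq 2.17 and Bowtie 1.1.2 on mm10, and peaks called with MACS2 2.1.0. The sources used here give neither their settings nor the annotation tool. Input libraries and library totals were not analysed here. Amplified fragments carried no molecular identifiers, so intervals of ratios are for counting error alone, and no interval covers variation between libraries.

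The authors deposited a table of 4088 peaks and a table of its 1538 promoter peaks, which held all 445 members. The pileup signal at the summit was deposited by the authors in whole numbers, with no library named. It was read here as unscaled fragments of the FA4 IP library. The fold enrichment ratio was deposited as MACS2 computes it, with 1 added to both levels. The −log10 q-value was deposited against the local background and was used only for the q limit below; the p-value column was not used. Peak width, distance to the start site and summit were deposited in bp.

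The FA0 background was computed as pileup plus 1, divided by fold, minus 1. MACS2 takes the largest of its local estimates, so where a wider window was used the FA0 count at the summit is at most that value. The worth of 1 FA0 fragment was found as the largest step that divides most backgrounds. In simulated data, where most backgrounds were made whole multiples of other steps, the search recovered those steps. Backgrounds from wider windows were not simulated. Because FA0 was counted at FA4's own summits, which were picked for high FA4 counts, ratios favour FA4. Ratios have exact conditional binomial intervals, shares exact (Clopper-Pearson) intervals, counts exact Poisson intervals and medians order-statistic intervals, at the 95% level.

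Genes were matched by symbol or synonym to RefSeq protein-coding genes of GRCm38.p6, and 408 of 409 matched. The members and the 31 gene lists were chosen with earlier results of these data known. Genes named were the 10 members of highest pileup and of highest fold, the 5 of lowest fold and of largest width, those beside the threshold, genes with 3 members, up to 4 genes of each list by pileup, and hedgehog, DNA methylation and folate genes; other names were chosen after their values were seen. Results for some genes are not reported here. Ribosomal protein and histone genes have near-identical copies, and how such reads were aligned is not given in the sources used here. Alternatives were pileups of 30 and 60, a −log10 q of 3, all chromosomes, 1 peak per gene, peak midpoints, neighbours within 2 kb and a shorter promoter window; unscaled FA0, the 252 bp window alone, plain ratios and RefSeq starts were added after seeing the data. Computation used scipy 1.17.1, numpy 2.4.6 and pandas 2.3.3 under Python 3.11.15, with plots by matplotlib 3.10.9.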

Additional observations from a re-analysis of the deposited data

How the results depend on the processing

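Of 50 values recomputed under alternatives, 39 stayed within the interval of the reported value (for counts, within 1.5 times), 10 moved and 1 reversed. With FA0 not scaled to the library total, the median ratio of FA4 over FA0 was 0.609 at the 372 members with the 252 bp window. With scaling it was 2.47 at the same 372, and 2.52 over all 445 as reported. Unscaled, none of the 372 had a ratio of at least 3 (0%, up to 0.987%). A pileup of 60 or more left 246 members, with a median fold of 2.63, a median FA0 background of 30.1 and 35% of cytosolic ribosomal protein genes. A pileup of 30 or more gave a median FA0 background of 22.4. A −log10 q of 3 or more gave a median fold of 2.69 and a share of 30.1% with a fold of at least 3. With 1 peak per gene, 19.3% of members had another listed peak within 5 kb. With RefSeq start sites 73.1% of summits lay downstream, 228 of the 312 peaks that had a RefSeq promoter. By the annotated start 217 of the same 312 did. No paired analysis was possible because there was only 1 library per condition, so no replicate could be left out either. Depth limits single members: a typical interval of the ratio spans the pooled ratio, and differences between neighbours in the order of folds were not detectable at this depth.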
